A study of Mus musculus with 8 samples.

Results

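Hox genes encode homeodomain transcription factors that set position along the body axis, and in the mouse they lie in clusters named HoxA, HoxB, HoxC and HoxD. This account covers 38 of them, matched by symbol in the count tables, out of 52636 genes: 10 of HoxA on chromosome 6 (52162417 to 52260880), 10 of HoxB on chromosome 11 (96194316 to 96368256), 9 of HoxC on chromosome 15 (102921103 to 103036852) and 9 of HoxD on chromosome 2 (74668310 to 74765142), all on GRCm38. RNA-seq counts per gene came from 8 mouse malignant mesothelioma samples, a tumour of the lining of the chest and belly cavities. Of these, 2 were labelled double knockout, with Nf2 and Cdkn2a lost, and 6 triple knockout, with Nf2, Cdkn2a and Bap1 lost, so loss of Nf2 and Cdkn2a is common to both groups. The study's title speaks of conditional mouse models of the pleural tumour. No source used here gives the strain, the age, the Cre or the cells it acts in, or says whether each sample is a separate mouse or culture, so each p-value reflects only how far these particular samples spread. Samples are numbered within each group and called double 1 and 2 and triple 1 to 6.

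Within a cluster, Hox genes are numbered by paralogue group, and members of one group in different clusters descend from a common ancestral gene and have similar homeodomains. During development they are switched on in the order of their position, low-numbered genes earlier and nearer the head, high-numbered genes later and nearer the tail, which is known as collinearity. Polycomb complexes keep Hox genes silent through methylation and ubiquitination of histones, Trithorax proteins keep them active, and Bap1 encodes an enzyme that removes ubiquitin from histone H2A. The design asks which of these genes differ when Bap1 is lost as well.

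Libraries held 26847202 to 32082535 counts. Double 1 stood apart, with a TMM scaling factor of 0.771 against 0.994 to 1.10 in the other libraries, and 4.04% of its counts came from mitochondrial genes against 1.17% to 2.33% elsewhere. Reads of Nf2, Cdkn2a and Bap1 were present throughout, and whole-gene counts do not check the labels, since no source used here gives the deleted exons. Bap1 stood at 106 and 71.2 CPM (counts scaled to library size with TMM factors) in the double samples and 43.1 to 72.1 CPM in the triple samples, Nf2 at 165 and 109 against 62.7 to 100.3 CPM, and Cdkn2a at 1.54 and 5.16 against 4.05 to 8.76 CPM. None of these differed by edgeR's quasi-likelihood test (adjusted p = 0.122, 0.103 and 0.306). Of the mesothelial markers, Msln was counted in all samples (251 and 342 CPM in double 1 and 2, 12.6 to 194 CPM in the triple samples), but Upk3b stayed at or under 0.365 CPM and Upk1b at or under 2.52 CPM in 7 samples and reached 173 and 137 CPM in triple 3. The labels describe cells kept in medium, yet leukocyte, endothelial and adult muscle markers were counted in all 8 samples, so it cannot be told here if the levels are those of cultures or tissue.

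The Hox genes called different between the groups, Hoxa6, Hoxa7 and Hoxa9, are neighbours in HoxA. Their promoters are shown because these are the Hox genes that passed the test, and because the CpG content of their promoters differs. The sequences are from RefSeq (GRCm38.p6, minus strand, written 5′ to 3′), from bases before a RefSeq transcript start that lie outside annotated untranslated regions, with every CpG in capitals. They lie at chr6:52208723-52208922 (Hoxa6), chr6:52218712-52218823 (Hoxa7) and chr6:52227371-52227620 (Hoxa9). The Hoxa6 stretch precedes the gene as counted here, while those of Hoxa7 and Hoxa9 lie inside the longer gene spans of the count tables.
Hoxa6: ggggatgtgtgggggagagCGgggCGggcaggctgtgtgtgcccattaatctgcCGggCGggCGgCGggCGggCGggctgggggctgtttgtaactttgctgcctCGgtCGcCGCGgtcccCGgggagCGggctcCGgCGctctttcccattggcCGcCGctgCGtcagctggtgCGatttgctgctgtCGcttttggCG
Hoxa7: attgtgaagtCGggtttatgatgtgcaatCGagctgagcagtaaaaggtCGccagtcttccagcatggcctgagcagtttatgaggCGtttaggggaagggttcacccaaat
Hoxa9: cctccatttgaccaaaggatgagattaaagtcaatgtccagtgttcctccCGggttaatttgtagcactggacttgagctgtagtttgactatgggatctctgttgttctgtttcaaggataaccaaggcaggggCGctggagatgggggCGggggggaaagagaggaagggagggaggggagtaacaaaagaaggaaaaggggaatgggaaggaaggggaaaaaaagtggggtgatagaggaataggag
The Hoxa6 stretch holds 22 CpG in 200 bases, the Hoxa7 stretch 4 in 112 bases and the Hoxa9 stretch 3 in 250 bases. Their whole RefSeq windows hold 26, 9 and 4 CpG. RefSeq promoter windows were found for 22 of the 38 genes, 24 windows in all, and these held 4 to 45 CpG with a median of 14.5, against a median of 7 over all 32851 windows of the same length. The letters TTTATG, bound by caudal factors that switch on Hox genes in the embryo, were searched on both strands. Other motifs were searched too and are not described here. TTTATG occurs 2 times in the Hoxa7 window (both copies are in the stretch printed above), not in the Hoxa6 and Hoxa9 windows, and in 11.9% of all windows. It occurs in 5 of the 24 Hox windows, and those of Hoxb8 and Hoxd4, which were not called, also hold 2 copies. Such a match is a description of these letters only.

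Across the 4 clusters, 23 of the 38 genes passed the filter on low counts and were tested. In the triple samples 3 were called lower (Hoxa6, Hoxa7 and Hoxa9) and 0 higher at an edgeR adjusted p under 0.05, with 7 at an unadjusted p under 0.05. Over all 17709 genes tested, 5.41% were called lower and 2.94% higher. The Hox genes called lower all lay in HoxA. Hoxa6 and Hoxa9 passed the filter only on their counts in the double samples, with at most 4 counts in any triple library. With 1 CPM required in 2 or more samples these were not tested, and 1 of 19 Hox genes was called lower. The share called is therefore not read as a result about the Hox genes. In 5 of the 23, all of them in HoxA, both double samples lay above every triple sample, which was so for 11.4% of all tested genes. The reverse held for none of the 23 and for 12.8% of all tested genes. The median log2 fold change (triple minus double) was -0.31 over the 23 genes and 0.02 over all tested genes. By cluster the medians were -2.22 in HoxA (7 genes tested), -0.17 in HoxB (8 genes), 3.25 in HoxC (4 genes) and 0.61 in HoxD (4 genes). In bulk samples, fewer cells expressing a gene and less RNA per cell cannot be told apart.

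**Figure D1:**
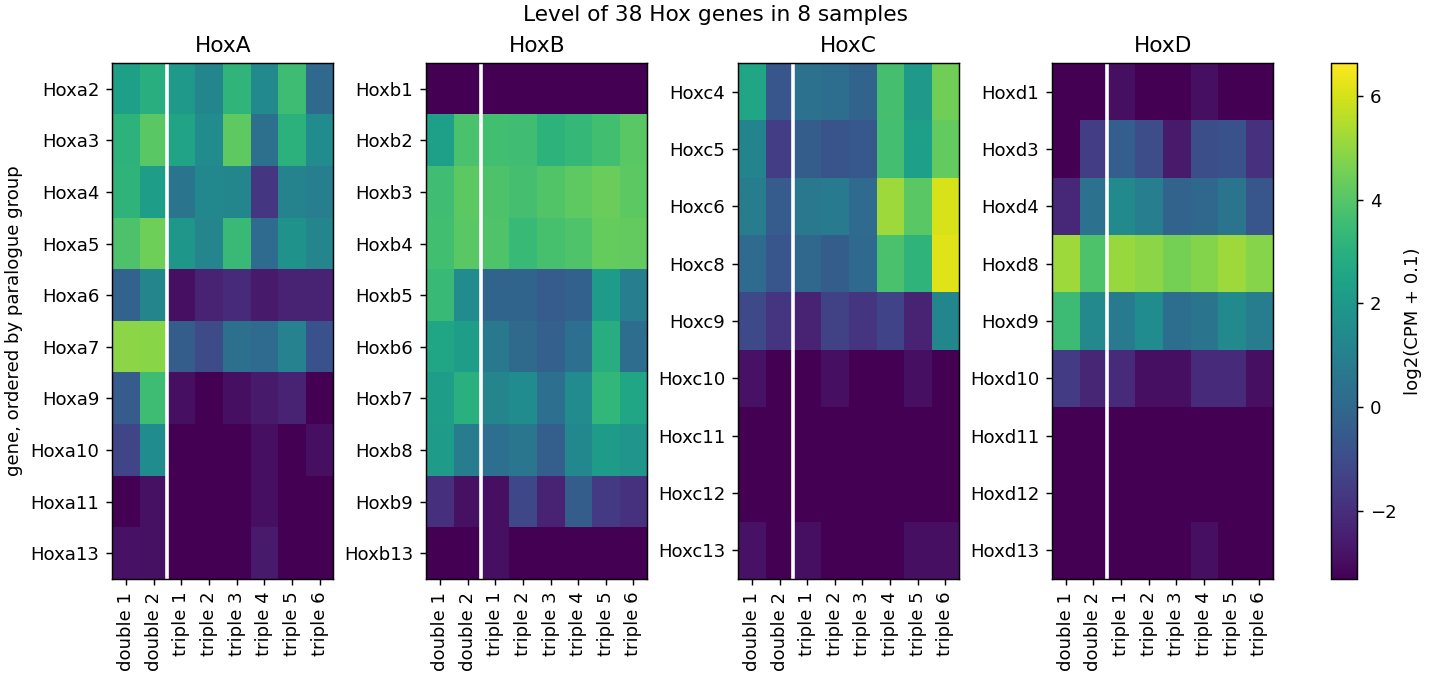
Levels of the 38 Hox genes (rows, by paralogue group within each cluster) in the 8 samples (columns, double knockout left of the white line), as log2 of CPM plus 0.1, brighter for higher. In the rows of Hoxa6, Hoxa7 and Hoxa9 both double samples are brighter than every triple sample, Hoxc5, Hoxc6 and Hoxc8 are brightest in triple 4, 5 and 6, and genes of groups 10 to 13 are dark nearly throughout.

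Of the 15 genes that were not tested, 5 had no count in any sample: Hoxb1, Hoxc11, Hoxc12, Hoxd11 and Hoxd12. A count of 0 over all libraries allows a level of up to 0.0127 CPM (3 counts, counting error only). A further 7 had 1 to 4 counts in all 8 libraries together, namely Hoxa11, Hoxa13, Hoxb13, Hoxc10, Hoxc13, Hoxd1 and Hoxd13. Hoxa10, Hoxc9 and Hoxd10 held 87, 113 and 24 counts. None of the 12 genes of groups 10 to 13, which pattern the tail end, the distal limb and the urogenital tract, passed the filter.

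In HoxA, Hoxa6, Hoxa7, Hoxa9 and Hoxa10 were higher in both double samples than in any of the 6 triple samples, though only Hoxa7 exceeded 1 CPM in both double samples. Hoxa7 (52214491 to 52221854, minus strand), which helps to pattern the thoracic vertebrae, stood at 30.4 and 29.4 CPM in double 1 and 2. In triple 1 to 6 it stood at 0.664, 0.38, 1.19, 1.03, 2.06 and 0.467 CPM. Both double samples thus lay far above every triple sample, and the double samples were close to each other. Hoxa7 fell by 4.95 ± 0.54 (SE) on the log2 scale (edgeR adjusted p = 0.00274), and an exact permutation test gave p = 0.0357, 2-sided, the smallest value that the 28 splits of 8 samples into 2 and 6 allow.

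Hoxa6 (52206288 to 52208722, minus strand), a thoracic patterning gene next to Hoxa7, stood at 0.81 and 2.24 CPM in double 1 and 2 and at 0.0332, 0.095, 0.128, 0.0663, 0.095 and 0.1 CPM in triple 1 to 6. The triple values rest on 1 to 4 counts each and the double values on 20 and 62 counts. The groups did not overlap, and the log2 fold change was -4.08 ± 0.50 (edgeR adjusted p = 0.00453). Hoxa9 (52223100 to 52231089, minus strand), a factor of blood stem cells and of the posterior axis, stood at 0.648 and 11.7 CPM in double 1 and 2. In triple 1 to 6 it stood at 0.0332, 0, 0.0321, 0.0663, 0.095 and 0 CPM, on 0 to 3 counts each. The groups did not overlap, but the double samples differed from each other more than in Hoxa6 or Hoxa7. Its log2 fold change was -7.20 ± 1.05 (edgeR adjusted p = 0.00763) over all samples and -3.94 without double 2, which holds 324 of its 347 counts.

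Hoxa10, the next gene towards the posterior end, which patterns the lumbar region and the uterus, did not pass the filter. It held 8 and 77 counts in the double samples and 2 counts over the 6 triple samples, a ratio of 150 after scaling to depth (exact 95% interval 40.2 to 1260, counting error only). With no filter on low counts its log2 fold change was -6.69 (edgeR adjusted p = 0.00506). This value and the ratio rest mostly on the 77 counts of double 2. Hoxa11 and Hoxa13, beyond it, had 2 and 4 counts in all.

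The anterior HoxA genes differed less between the groups, and none was called. Hoxa5, which patterns the neck and chest region and the lung, stood at 14.6 and 21.6 CPM in double 1 and 2 and at 3.75, 2.22, 10.7, 1.03, 3.42 and 2.2 CPM in triple 1 to 6. Triple 3 came nearest to the double samples, and the groups did not overlap. Its log2 fold change was -2.22 ± 0.69 (edgeR adjusted p = 0.0815; exact permutation p = 0.0357). Hoxa4, a cervical patterning gene, stood at 8.91 and 4.66 CPM in double 1 and 2 and at 1.33, 2.41, 2.31, 0.199, 2.09 and 1.83 CPM in triple 1 to 6. Its log2 fold change was -2.0 ± 0.67 (edgeR adjusted p = 0.0998; exact permutation p = 0.0714), with triple 4 lowest. Without triple 3 Hoxa5 was called lower (-2.84, edgeR adjusted p = 0.0206), and without triple 4 Hoxa4 was (-1.76, adjusted p = 0.0478).

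Hoxa3, which is needed for the thymus and parathyroid, and Hoxa2, a gene of the hindbrain and the second pharyngeal arch, overlapped between the groups. Hoxa3 ranged from 1.19 to 18.1 CPM in the triple samples against 8.7 and 17.1 CPM in double 1 and 2, and Hoxa2 from 0.967 to 11.6 CPM against 4.9 and 7.8 CPM. Their log2 fold changes were -1.0 ± 0.85 and -0.31 ± 0.82 (edgeR adjusted p = 0.466 and 0.832). Along the chromosome the fitted log2 fold change was thus lower at each step from Hoxa2 to Hoxa9: -0.31, -1.0, -2.0, -2.22, -4.08, -4.95 and -7.20. Of these genes, Hoxa6 and Hoxa9 passed the filter only on their counts in the double samples. This order held in 15 of 19 alternative fits, which reuse the same samples and so are not separate support. It did not hold among the 4 samples that carry the code SN930 in their description (double 1 and triple 4 to 6), without double 2 or without triple 2, and when 1 CPM was required in 2 or more samples Hoxa6 and Hoxa9 were not tested. The differences between neighbours in this order were not tested.

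**Figure D2:**
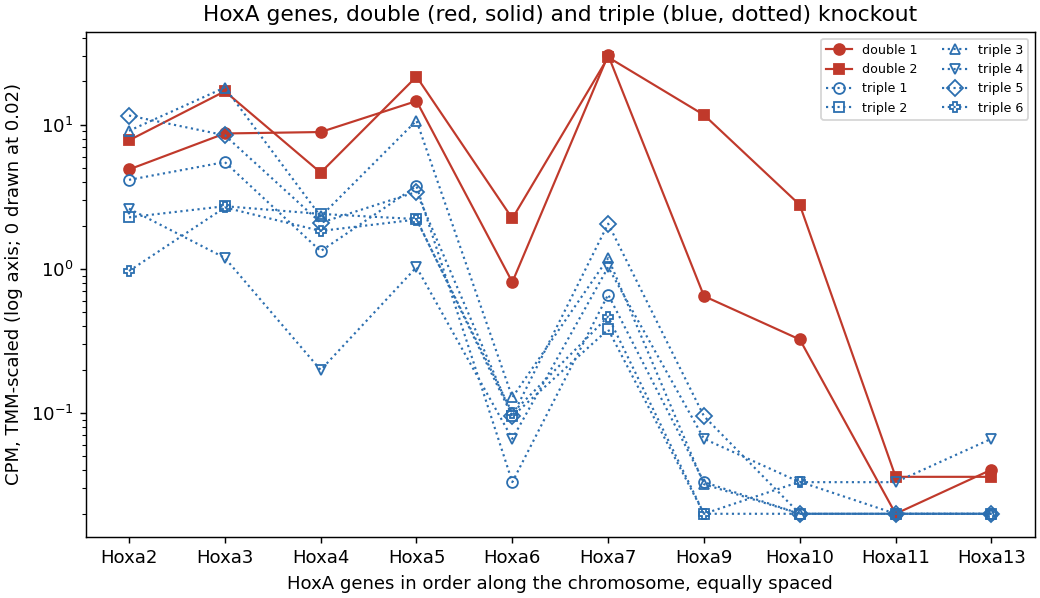
Levels of the 10 HoxA genes in each sample (vertical axis, CPM on a log scale with 0 drawn at 0.02) in their order along the chromosome (horizontal axis, equally spaced), double samples in red and triple samples in blue. The lines overlap at Hoxa2 and Hoxa3 and part from Hoxa4 to Hoxa10, where both red lines lie above all blue lines.

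The deposited tables do not state whether reads were counted by strand, so reads of overlapping genes cannot be told apart. Hoxa6 shares no exon bases with another gene, and Hoxa9 shares 1.5% of its exon bases with Mir196b. Hoxa7 shares 20.4% with Hoxaas3 on the opposite strand, which stood at 2.27 and 1.73 CPM in double 1 and 2 and 0.222 to 1.41 CPM in the triple samples (log2 fold change -1.55 ± 0.67, edgeR adjusted p = 0.175). In all, 15 of the 38 genes share exon bases with another gene, and Hoxb3, Hoxd3 and Hoxd4 share 52.9%, 62.8% and 52.3% of theirs, so their counts are uncertain.

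HoxB was split between an even anterior part and a variable middle. Hoxb4, a gene of the hindbrain and of blood stem cells with the highest mean level per exon length in the cluster, stood at 12.3 and 17.1 CPM in double 1 and 2. In triple 1 to 6 it stood at 14.9, 10.4, 13.4, 15.0, 19.4 and 18.7 CPM. The groups overlapped fully, with a log2 fold change of 0.06 ± 0.29 (edgeR adjusted p = 0.910; exact permutation p = 0.893). Hoxb2 and Hoxb3, hindbrain genes like Hoxb4, had log2 fold changes of 0.36 ± 0.42 and 0.17 ± 0.26. Hoxb2 depended on the double samples, at 1.34 without double 2 (edgeR adjusted p = 0.0466) and -0.22 without double 1 (0.855). Over the 6 triple samples the highest level was 1.96, 1.55 and 1.86 times the lowest in Hoxb2, Hoxb3 and Hoxb4.

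Further along the cluster the levels varied more. Hoxb5, which patterns the shoulder region and the gut nervous system, was chosen for its values with the next 3 genes after these were seen. It stood at 10.7 and 2.67 CPM in double 1 and 2 and at 0.83, 0.823, 0.642, 0.763, 4.44 and 1.8 CPM in triple 1 to 6, so the groups overlapped in triple 5 alone. Hoxb6, Hoxb7 and Hoxb8, thoracic genes, were also highest among the triple samples in triple 5, at 7.22, 9.47 and 4.44 CPM, against 0.738 to 1.53, 1.16 to 5.87 and 0.706 to 3.6 CPM in the other triple samples. The log2 fold changes were -2.10 ± 0.79, -1.26 ± 0.83, -0.65 ± 0.70 and -0.40 ± 0.70 for Hoxb5 to Hoxb8 (edgeR adjusted p = 0.127, 0.344, 0.570 and 0.741). Without triple 5, Hoxb5 and Hoxb6 were called lower, at log2 fold changes of -2.78 and -2.21 (edgeR adjusted p = 0.0452 and 0.0234), and Hoxb5 was at -2.77 without double 2 (0.0496) but at -0.81 without double 1 (0.792). Hoxb9 was near the limit of counting, with 1 to 20 counts per library.

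**Figure D3:**
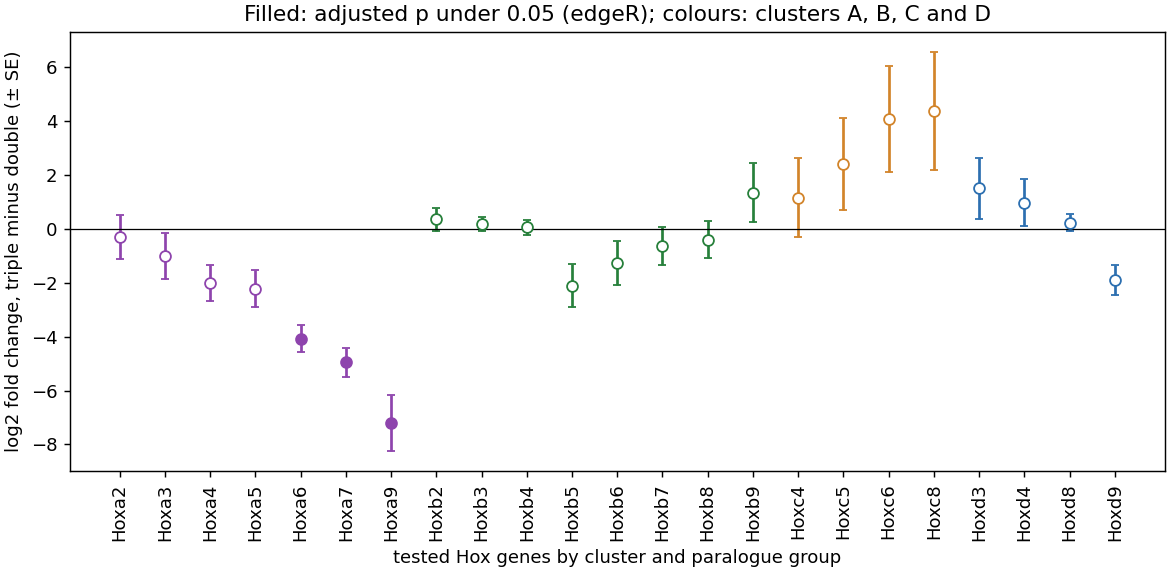
Log2 fold change, triple minus double, of the 23 tested Hox genes (points, with bars of 1 SE) by cluster and paralogue group, filled where the edgeR adjusted p was under 0.05. The HoxA values step down from Hoxa2 to Hoxa9, Hoxb2 to Hoxb4 lie near 0, and the HoxC values are above 0 with the widest bars.

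HoxC differed most among the triple samples themselves. Hoxc6, a thoracic gene, had the highest mean level per exon length in the cluster and stood at 1.78 and 0.65 CPM in double 1 and 2. In triple 1, 2 and 3 it stood at 1.49, 1.62 and 1.03 CPM, and in triple 4, 5 and 6 at 36.4, 17.1 and 65.8 CPM. Triple 1 to 3 were therefore about as low as the double samples, and triple 4 to 6 were far above both. The log2 fold change of 4.08 ± 1.95 did not pass the test (edgeR adjusted p = 0.210; exact permutation p = 0.250).

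The neighbours of Hoxc6 followed the same split, and their values are given because of it. Hoxc8, which patterns the lower thorax and motor neurons of the forelimb, stood at 1.01 and 0.542 CPM in double 1 and 2, at 0.896, 0.665 and 0.963 CPM in triple 1 to 3, and at 13.6, 8.74 and 72.0 CPM in triple 4 to 6. Hoxc5, a gene of the neck and upper chest, stood at 2.15 and 0.253 CPM in double 1 and 2, at 0.664, 0.507 and 0.578 CPM in triple 1 to 3, and at 12.6, 4.85 and 19.0 CPM in triple 4 to 6. Hoxc4 stood at 5.75 and 0.542 CPM in double 1 and 2, at 1.23, 1.11 and 0.802 CPM in triple 1 to 3, and at 12.9, 3.99 and 22.1 CPM in triple 4 to 6. For these genes double 1 lay between the low and the high triple samples, except that in Hoxc4 it was also above triple 5. Log2 fold changes of Hoxc4, Hoxc5 and Hoxc8 were 1.16 ± 1.47, 2.41 ± 1.72 and 4.37 ± 2.19 (edgeR adjusted p = 0.631, 0.384 and 0.226). Hoxc9 stood at 2.3 CPM in triple 6 and at or under 0.364 CPM in every other sample, and the 4 genes beyond it held 0 to 4 counts in all.

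**Figure D4:**
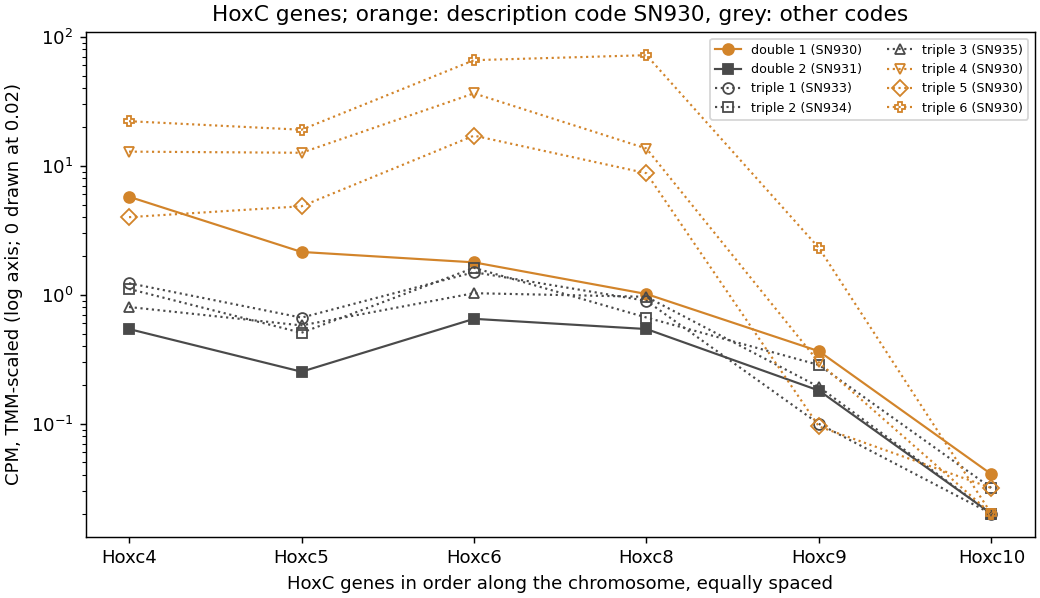
Levels of Hoxc4 to Hoxc10 in each sample (vertical axis, CPM on a log scale with 0 drawn at 0.02) in their order along the chromosome (horizontal axis, equally spaced), orange for samples with the description code SN930 and grey for other codes. The 4 orange lines lie above all grey lines from Hoxc4 to Hoxc8, that of double 1 by little at Hoxc6 and Hoxc8, and triple 6 alone is above 1 CPM at Hoxc9.

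The high HoxC samples shared a code in the sample descriptions, whose meaning the labels do not give. Double 1 and triple 4, 5 and 6 carry the code SN930, and double 2 and triple 1, 2 and 3 each carry another. In 5 of 20 tested Hox genes (Hoxc4, Hoxc5, Hoxc6, Hoxc8 and Hoxb8) all 4 SN930 samples lay above all 4 others, against 1.63% of the 16428 genes tested in that comparison. With genotype as a term, SN930 minus other, log2 differences were 3.58 ± 0.55 for Hoxc4, 4.08 ± 0.53 for Hoxc5, 4.16 ± 0.77 for Hoxc6, 4.39 ± 1.13 for Hoxc8 and 1.57 ± 0.36 for Hoxb8. None was called by edgeR (adjusted p = 0.786 for each), 0 of the 20 Hox genes and 0 of all genes being called (0% higher). At an unadjusted p under 0.05 there were 6 of the 20 Hox genes and 1018 of all genes (6.2%). For Hoxc6 and Hoxc8, double 1 was close to the samples with other codes: it held 44 counts of Hoxc6 against 45 and 51 in triple 1 and 2, and 25 of Hoxc8 against 27 and 30 in triple 1 and 3, so its place above them rests on its TMM factor of 0.771. This comparison was chosen after the HoxC values were seen.

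In Hoxa6, Hoxa7 and Hoxa9 both double samples lay above every triple sample, and each side of the code holds 1 double sample. Lower triple levels on both sides were thus fixed beforehand, and only their size is described here. Among SN930 samples alone (double 1 against triple 4 to 6) Hoxa7 had a log2 fold change of -4.66, and among the others (double 2 against triple 1 to 3) of -5.31. Hoxa6 had -3.13 and -4.65, and Hoxa9 -3.46 and -8.84. Each of these fits has a single double sample, taken to vary like the triple samples. Of these 6 values only that of Hoxa7 among the SN930 samples passed the test (the others at an edgeR adjusted p of 0.0576 to 0.169).

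HoxD held the Hox gene with the highest mean level per exon length over the 8 samples. Hoxd8, a gene of the lower trunk, stood at 36.6 and 14.6 CPM in double 1 and 2 and at 34.8, 30.3, 23.8, 27.3, 36.1 and 28.5 CPM in triple 1 to 6. It was high in every sample and lowest in double 2, with a log2 fold change of 0.24 ± 0.33 (edgeR adjusted p = 0.663; exact permutation p = 0.357). Per kb of exon its mean over the 8 samples was 10.6 CPM, above Hoxc6 at 6.54, Hoxb4 at 5.90, Hoxc8 at 4.34 and Hoxa5 at 3.96 CPM per kb. The order differed between samples: Hoxa5 led in double 2 and Hoxc6 in triple 4 and 6, and over the double samples alone Hoxa7 (10.4) and Hoxa5 (9.64) were above Hoxd8 (9.31 CPM per kb). The neighbouring Hoxd9, which patterns the lumbar region and the limb and was chosen for its values, stood at 11.3 and 2.46 CPM in double 1 and 2 and at 1.63, 2.79, 1.12, 1.33, 2.57 and 1.7 CPM in triple 1 to 6. Double 2 lay within the triple samples, and the log2 fold change of -1.89 ± 0.55 did not pass the test (edgeR adjusted p = 0.0665). The value rests on double 1: it was -0.41 without double 1 (adjusted p = 0.816) and -2.59 without double 2 (0.00679), where it was called. Hoxd3 and Hoxd4, at or under 0.697 and 2.66 CPM in every sample, had log2 fold changes of 1.5 ± 1.12 and 0.98 ± 0.88, and Hoxd10 at most 6 counts in a library.

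Summed per kb of exon, the 38 genes came to 72.7 and 69.1 CPM per kb in the double samples, to 38.4, 33.2 and 39.7 in triple 1 to 3 and to 59.7, 69.3 and 106 in triple 4 to 6. HoxA made up 40.3% and 54.2% of this sum in the double samples and 16.6%, 14.1%, 39.9%, 4.8%, 17.2% and 3.4% in triple 1 to 6, so triple 3 nearly reached double 1. HoxC made up 5.8% and 1.2% in the double samples, 3.4% to 4.9% in triple 1 to 3, and 48.8%, 19.3% and 64.5% in triple 4 to 6. HoxB and HoxD were present in every sample, at 12.98 to 29.0 and 6.99 to 18.8 CPM per kb. The total thus rested on different clusters in different samples.

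**Figure D5:**
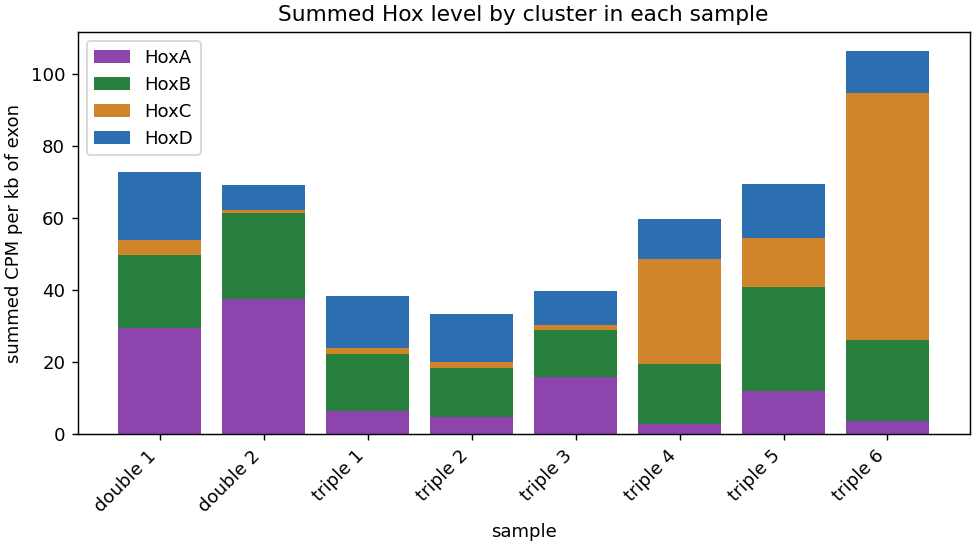
Summed level of the Hox genes in CPM per kb of exon (vertical axis, from 0) in each sample, stacked by cluster. HoxA is the largest segment in both double samples and in triple 3, HoxC is the largest in triple 4 and 6, and HoxB is the largest in triple 1, 2 and 5.

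Within a paralogue group the leading cluster changed between samples. In group 7 (Hoxa7 and Hoxb7) the summed level was 13.6 and 15.4 CPM per kb in the double samples, of which Hoxa7 gave 77.8% and 66.4%. In the triple samples the sum was 1.16 to 6.85 CPM per kb, and Hoxa7 gave 4.1% to 35.6%, so Hoxb7 led there. In group 6 the sum was 4.53 and 5.15 CPM per kb in the double samples, 0.949 to 1.44 in triple 1 to 3, and 15.8, 10.9 and 27.99 in triple 4 to 6, where Hoxc6 gave 95.8%, 65.2% and 97.7%. In group 8, Hoxd8 gave 86.2% and 87.0% of the sum in the double samples and 93.4% to 94.4% in triple 1 to 3, but 63.6%, 73.4% and 28% in triple 4 to 6, where Hoxc8 took up most of the rest. No test was run on these sums.

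The Hox genes varied among the 6 triple samples. The SD of log2 CPM over these samples had a median of 1.00 over the 23 tested Hox genes, against 0.36 over all tested genes, and exceeded 1 in 12 of the 23 against 11.7% of all tested genes. The genes were not matched by level, on which this SD can depend. Hoxc4, Hoxc5, Hoxc6 and Hoxc8 are among the 12 and follow the same split of the triple samples, so they are not separate cases. Hoxc8 and Hoxc6 had SDs of 2.68 and 2.60, above those of 99.6% and 99.5% of tested genes, and their highest triple level was 108 and 64.1 times the lowest. At the even end, Hoxd8 and Hoxb3 had SDs of 0.22 and 0.23, below those of most tested genes.

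Genes that act with or upstream of Hox genes were called at shares to be read against the 5.41% lower and 2.94% higher over all genes. Of 9 cofactors of the TALE class, homeodomain proteins that bind DNA together with HOX proteins, 0 were called (median log2 fold change 0.26). Of 12 subunits of PRC2, the Polycomb complex that methylates histone H3 at lysine 27, 0 were called (median 0.02), and the same held for 12 Trithorax and demethylase genes (median 0.08). Of 30 genes of PRC1, which ubiquitinates histone H2A, and of the Bap1 complex, 2 fell and 0 rose (median 0.03), a share near that background. Cbx7, a PRC1 subunit that reads the PRC2 mark, fell from 41.2 and 21.2 CPM in double 1 and 2 to 4.15 to 10.5 CPM in the triple samples, by 1.88 ± 0.35 on the log2 scale (edgeR adjusted p = 0.0201). Pcgf5, a subunit of variant PRC1, fell from 53.7 and 54.0 CPM to 21.5 to 34.3 CPM, by 0.90 ± 0.20 (edgeR adjusted p = 0.0327).

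In the lists with no call, the members of smallest p were as follows. The cofactors Pbx2 and Pknox2 had log2 fold changes of 0.36 ± 0.15 and -1.26 ± 0.60 (edgeR adjusted p = 0.157 and 0.207). Epop, a modulator of PRC2, stood at 3.08 and 3.86 CPM against 5.51 to 13.6 CPM (1.22 ± 0.41, edgeR adjusted p = 0.103), and Ezh1, a methyltransferase of PRC2, had -0.77 ± 0.26 (0.104). Ash2l and Rbbp5, core subunits of the complexes that methylate H3 at lysine 4, had -0.54 ± 0.17 and 0.56 ± 0.25 (0.0868 and 0.176).

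Retinoic acid induces anterior Hox genes in the embryo. Of 13 inducers listed, the caudal factors Cdx1, Cdx2 and Cdx4 did not pass the filter, at or under 0.144 CPM in every sample. Of the 10 tested (retinoic acid enzymes and receptors, Gdf11), 2 fell and 1 rose (median 0.14). The genes called were all enzymes of retinoic acid. Cyp26a1, which degrades retinoic acid, stood at 6.15 and 6.46 CPM in double 1 and 2 and between 0.0332 and 0.706 CPM in triple 1 to 6 (log2 fold change -4.29 ± 0.67, edgeR adjusted p = 0.0100). Its relative Cyp26c1 stood at 0.931 and 0.542 CPM against 0 to 0.127 CPM (-3.02 ± 0.65, adjusted p = 0.0293). Since 1 count is 0.0317 to 0.0405 CPM, Cyp26c1 passed the filter only on its counts in the double samples. Its call is therefore not read as a result about these enzymes. Aldh1a2, which makes retinoic acid, stood at 1.09 and 0.794 CPM against 5.44 to 53.6 CPM (4.34 ± 1.11, adjusted p = 0.0475). The groups did not overlap in any of these genes. The other retinoic acid enzymes of the list, Aldh1a1, Aldh1a3 and Cyp26b1, overlapped between the groups and were not called, with log2 fold changes of 0.17 ± 0.77, -0.10 ± 0.62 and 0.32 ± 0.71 (edgeR adjusted p = 0.905, 0.933 and 0.799).

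Non-coding RNAs within the clusters and genes beside them are given next. Of 16 cluster RNAs found, 5 were tested and 1 was called lower, too few to set against the 5.41% over all genes. Hoxb3os, antisense to Hoxb3 and Hoxb2, fell from 10.4 and 12.2 CPM to 2.82 to 5.19 CPM, by 1.51 ± 0.29 on the log2 scale (edgeR adjusted p = 0.0208), while Hoxb3 itself had a log2 fold change of 0.17. Of 20 flanking genes found, 16 were tested and 1 was called lower, near the background of 5.41%, with a median of 0.02. Calcoco1, beside HoxC, fell from 269 and 111 CPM to 43.9 to 63.5 CPM, by 1.89 ± 0.28 (edgeR adjusted p = 0.00832). The other 15 tested genes beside the clusters were not called.

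Embryonic muscle markers moved with the genotype, and their part in the Hox results was not tested. Of 15 embryonic muscle markers 14 were called lower in the triple samples and 0 higher (median log2 fold change -6.36), against 5.41% and 2.94% of all genes tested. The list was chosen with earlier results of these data known, so this share is a description only. The summed level of these markers was 9042 and 2936 CPM in double 1 and 2 and 9.35 to 200.7 CPM in the triple samples. Among them Myf5, Pax3, Myh3 and Cdh15 were at 44.2 and 32.4, 8.91 and 16.1, 2448 and 636, and 333 and 343 CPM in double 1 and 2, and at or under 0.697, 0.823, 18.8 and 4.66 CPM in the triple samples. One marker of the list was at 0, Mymx in triple 4. Pax7, also called lower, stood at 42.6 and 0.361 CPM in double 1 and 2. In the triple samples it stood at 0.0332 to 0.697 CPM, so its groups overlapped.

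Calls in the other marker lists are to be read against 5.41% lower and 2.94% higher over all genes tested. Of 14 adult muscle markers 1 was called lower, near that share (Myh7, log2 fold change -7.31 ± 1.48, edgeR adjusted p = 0.0244). Their sums were 85140 and 3672 CPM in double 1 and 2 and 154 to 16730 CPM in the triple samples. Leukocyte markers, with sums of 969 and 2120 against 1956 to 3068 CPM, had 2 of 10 called higher (Cd68 1.26 ± 0.27 and Itgam 1.89 ± 0.46, edgeR adjusted p = 0.0279 and 0.0430). Fibroblast markers had 1 of 8 called higher (Pdgfra, 1.83 ± 0.41, adjusted p = 0.0322) with sums of 6750 and 8531 against 14610 to 30100 CPM. Endothelial markers had 1 of 8 lower (Tek, -1.83 ± 0.48, adjusted p = 0.0499) with sums of 394 and 284 against 184 to 449 CPM. Tek too rests on double 1, at 89.7 and 20.8 CPM in double 1 and 2 against 9.91 to 22.7 CPM in the triple samples. Epithelial markers had 1 of 5 tested higher (Epcam, 2.90 ± 0.67, adjusted p = 0.0349) with sums of 5.63 and 8.63 against 6.07 to 39.5 CPM. Of 11 tested mesothelial markers 0 were called, with sums of 348 and 1430 against 135 to 1070 CPM, and Wt1 and Pdpn had the smallest p (edgeR adjusted p = 0.143 and 0.140). Wt1 was at 0 and 0.0361 CPM in double 1 and 2, at 33.2 CPM in triple 3 and at 0.317 to 1.76 CPM in the other triple samples, and Pdpn had a log2 fold change of 1.01 ± 0.39. In each of these 7 marker lists the summed levels of triple 4, 5 and 6, where HoxC was high, lay interleaved with those of triple 1, 2 and 3. Such sums weigh abundant genes most, and single markers did not all follow them. The fibroblast marker Lum stood at 295, 335 and 414.5 CPM in triple 1 to 3. It stood at 27.6, 70.6 and 63.5 CPM in triple 4 to 6. The leukocyte marker Ptprc stood at 93.9 to 151 CPM in triple 1 to 3 and 74.3 to 90.5 CPM in triple 4 to 6. Dcn and Pdgfra, also fibroblast markers, overlapped between these triple samples. Whether the cell make-up of these samples differed was not tested.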

How the data were processed

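Each sample has 1 table of read counts per gene, whole numbers, as deposited by the authors. The submitters' processing notes list HTSeq, DESeq2, mm10 and GRCm38 without saying what each was used for. The aligner, annotation release and strand setting were not given in the sources used here. Per the labels, cells were kept in RPMI medium and RNA was enriched for mRNA. Gene starts, counted from 0 in the files, were moved by 1, and all 38 Hox genes then had their GENCODE M21 coordinates. Exon lengths and overlaps are from that release.

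After filterByExpr and TMM scaling, edgeR 4.0.16 (R 4.3.3) ran its quasi-likelihood test as triple minus double over 8 samples, with no covariate and Benjamini-Hochberg adjustment over 17709 genes. Depth was 26847202 to 32082535 counts, and 1 count is 0.0317 to 0.0405 CPM. Log2 levels used a prior count of 2. Scripts were tested on simulated counts. Alternatives were DESeq2 1.42.0, limma-voom (limma 3.58.1), other scalings and filters, the description code, and leaving out each sample. Genes named with values were those called, those whose groups did not overlap, the highest per exon length in each cluster, and up to 4 called (or 2 uncalled) genes per list of smallest p. The members and lists were chosen with earlier results of these data known.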

Additional observations from a re-analysis of the deposited data

Results flagged for a closer look

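Among the 6 triple samples, 23 Hox genes were checked for a single sample far from the others by Dixon's test at the 95% level, and 2 were found; chance flags about 1 in 20 such groups. Hoxa4 in triple 4 was low, at -1.91 on the log2 CPM scale (0.199 CPM), with the next sample at 0.48 and the gap 0.743 of the whole range. Without triple 4, Hoxa4 was called lower in the triple samples (log2 fold change -1.76, edgeR adjusted p = 0.0478). Hoxb6 in triple 5 was high, at 2.87 (7.22 CPM), with the next at 0.67 and the gap 0.69 of the range. Without triple 5, Hoxb6 was called lower (-2.21, edgeR adjusted p = 0.0234).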

How the results depend on the processing

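The count of Hox genes called lower, 3 in all, was 1 when 1 CPM was required in 2 or more samples (Hoxa6 and Hoxa9 then not tested), 7 with DESeq2, 1 with limma-voom and sample weights and 0 among samples with codes other than SN930, where 1 gene of all was called. Leaving out each sample gave 3 to 5, with 5 without double 2 or without triple 5. The count called higher, 0, was 2 with DESeq2 (Hoxc6 and Hoxc8, adjusted p = 0.0216 and 0.0227), and 0 to 1 with each sample left out (Hoxb2 without double 2). Other settings kept both counts within 1.5 times. Of 430 log2 fold changes of single genes under the 19 alternatives, 395 kept direction and side of the threshold, 7 lost a call, 14 gained one and 14 moved without a call. Hoxa6 and Hoxa9 lost their calls with sample weights (adjusted p = 0.0573 and 0.0586) and within each code, and Hoxa7 among the other codes (0.141). The cause was not tested. Over all genes 1478 were called, 315 without double 1 and 5579 without double 2. Levels under about 0.1 CPM rest on 3 counts or fewer. No paired analysis was possible because the replicate numbers, given in accession order, only name samples. The description code, which samples of both groups share, was used as a term in its place and left 3 genes called lower.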

Other observations

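The most posterior Hox gene at 1 CPM or above differed by cluster and sample. This cut was chosen and is no limit of detection, since 1 count is 0.0317 to 0.0405 CPM. Below it, double 1 held 16 counts of Hoxa9, and double 2 held 7 to 18 each of Hoxc4, Hoxc5, Hoxc6 and Hoxc8. By this cut HoxA reached group 7 in double 1 and group 10 in double 2, and group 5 or 7 in the triple samples. HoxB reached group 8 in 7 samples and group 7 in triple 3, HoxD reached group 9 in all 8, and HoxC ranged from no gene in double 2 through group 6 in triple 1 to 3 and group 8 in double 1, triple 4 and triple 5 to group 9 in triple 6. Between 12 and 19 of the 38 genes reached 1 CPM in a sample, 18 in each double sample.

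In group 9, Hoxd9 gave 94.2% of the summed level per kb of exon in double 1 and Hoxa9 gave 62.9% in double 2, so the double samples differed from each other in which group 9 gene led. In triple 1 to 5 Hoxd9 led with 61.3% to 92.7%, and in triple 6 Hoxc9 led with 52.4%. In group 5, Hoxa5 gave 63.2% and 91.7% in the double samples and 72.0% to 93.2% in triple 1 to 3, and Hoxc5 gave 83.2% and 77.2% in triple 4 and 6. These sums were not tested.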
